A study of Mus musculus with 9 samples.

Results

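The genes described here are the matrix metalloproteases (Mmp), the disintegrin metalloproteases of the Adam and Adamts families, and the tissue inhibitors of metalloproteases (Timp) in mouse cardiac ventricles. They were taken by symbol from a table of 24391 genes, which held 79 symbols of these families. A gene was kept where its normalized count reached at least 10 in at least 3 of the 9 libraries, which left 47 members: 13 Mmp, 16 Adamts, 14 Adam and 4 Timp genes. Of the other 32 symbols, 14 were at 0 in all 9 libraries. The third-highest value among the 9 libraries, which decides membership, was 10.1 for Mmp25 and 10.8 for Mmp13 just inside the limit, and 7.43 for Adamts16 and 7.02 for Mmp12 just outside it.

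RNA sequencing libraries came from ventricles of C57BL/6 mice in 3 groups of 3 libraries. The first group consisted of adults of 15 weeks that were positive for the alphaMHC Cre recombinase and carried beta-catenin stabilized through deletion of its exon 3 (stabilized beta-catenin). The second consisted of wild-type pups at postnatal day 6 (P6), for which no Cre is listed. The third consisted of adults of 15 weeks that were also alphaMHC Cre positive and had wild-type beta-catenin (adult control). The alphaMHC promoter drives Cre in cardiomyocytes, whereas the libraries hold RNA from all cells of the ventricle, so fewer cells of a type and less RNA per cell cannot be told apart. Both adult groups are marked as a re-analysis. P6 pups differ from the adults in age, in Cre genotype and in that mark at once, and the effects of these cannot be told apart. Nothing in the labels ties a library to an animal of its own, and p-values then measure only the spread between these samples, which may be technical.

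Metalloproteases of these families use a zinc ion in their active site. MMPs cut collagens and other matrix proteins and are made as inactive proenzymes, several of them anchored in the cell membrane. ADAMTS proteases are secreted and cut proteoglycans, trim procollagens or act on microfibrils, whereas ADAM proteins are membrane proteins that shed growth factors and receptors from the cell surface, with some members lacking an active site. TIMPs block these enzymes, and in the heart the balance between both sides is known for its part in matrix turnover during growth and remodelling.

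Assigned reads per library were 14965316 to 23236129 with stabilized beta-catenin, 7467551 to 7913057 at P6 and 15234366 to 21568022 in adult controls, so low counts are least precise at P6. Ctnnb1, the beta-catenin gene, stood at 7626 to 8391, 8333 to 9053 and 7543 to 8369 normalized counts in these groups. Since a count covers the whole gene, it cannot check the deletion of 1 exon. Axin2, a feedback target of beta-catenin, was at 489 to 740 normalized counts with stabilized beta-catenin, 57.8 to 61.7 at P6 and 50.8 to 92.0 in adult controls. Values are normalized counts, which are read counts divided by 1 factor per library. Log2 fold changes (log2FC) and adjusted p-values come from limma on log2(normalized count + 1) with Benjamini-Hochberg adjustment over all genes tested. A gene is called where the adjusted p is under 0.05. An exact two-sided permutation test of 3 against 3 libraries cannot give a p below 0.1, so calls rest on limma's moderated variance.

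Promoter stretches of 4 members are printed because their genes show both directions of change at P6, where Mmp3 and Mmp13 were at their lowest and Mmp14 and Adamts12 at their highest. Each stretch is the 250 bases before the annotated start in RefSeq, build GRCm38.p6, on the plus strand, whereas the reads were mapped to mm9 per the submitters' processing notes. Capitals mark a match to the AP-1 motif TGANTCA on either strand. The core motif of TCF and LEF factors, the partners of beta-catenin on DNA, was searched as CTTTGA on both strands, and would also have been in capitals. The positions are chr9:7445572-7445821 for Mmp3, chr9:7272264-7272513 for Mmp13, chr14:54431348-54431597 for Mmp14 and chr15:11064523-11064772 for Adamts12.
Mmp3: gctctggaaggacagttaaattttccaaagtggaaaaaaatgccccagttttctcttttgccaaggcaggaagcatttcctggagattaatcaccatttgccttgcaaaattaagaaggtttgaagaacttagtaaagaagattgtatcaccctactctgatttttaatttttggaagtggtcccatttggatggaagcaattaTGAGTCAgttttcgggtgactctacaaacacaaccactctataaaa
Mmp13: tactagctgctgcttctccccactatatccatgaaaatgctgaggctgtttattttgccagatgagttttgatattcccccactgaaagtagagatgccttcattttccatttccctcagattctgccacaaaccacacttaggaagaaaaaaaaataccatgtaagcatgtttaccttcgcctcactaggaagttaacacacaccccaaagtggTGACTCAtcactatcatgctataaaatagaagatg
Mmp14: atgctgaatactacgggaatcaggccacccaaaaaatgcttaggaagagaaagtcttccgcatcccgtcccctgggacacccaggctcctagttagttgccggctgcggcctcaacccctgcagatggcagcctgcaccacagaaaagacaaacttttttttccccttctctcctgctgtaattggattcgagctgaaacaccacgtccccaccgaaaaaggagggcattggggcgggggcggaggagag
Adamts12: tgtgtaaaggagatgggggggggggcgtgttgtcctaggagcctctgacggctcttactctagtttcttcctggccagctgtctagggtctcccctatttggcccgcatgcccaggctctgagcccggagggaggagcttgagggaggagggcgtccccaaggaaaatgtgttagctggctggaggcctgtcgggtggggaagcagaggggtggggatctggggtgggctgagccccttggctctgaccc
The search covered 28 members with an entry, which had 31 promoters in all. Members on 1 chromosome were left out of it. Adamts19 was not among the 28, so its promoter was not searched and the shares below do not cover it. The AP-1 motif was held by 3 of these promoters, those of Mmp3 and Mmp13 and 1 of Adam19. That is 9.68% of the 31, against 6.75% of all 32851 promoters of the same length. No chromosome was left out of the latter. The TCF and LEF core was found in 1 of the 31, a different promoter of Adam19, or 3.23%, against 13.8% of all promoters. Such a match is a description of letters, and a missing match says only that the letters are not in this window.

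Stabilized beta-catenin ventricles differed from adult controls in 1 member that rose, Adamts19, and 1 that fell, Mmp15. The other 39 of the 41 members tested did not pass. An unadjusted limma p under 0.05 was found for 10 of the 41. The share of all genes under that limit was not taken, so this count is not read as a result about the members. Over all 12971 genes tested, 1.49% were called higher and 0.308% lower, 1.8% in all. Without adult control library 1, 37 members were tested, of which 2 rose (Adamts19 and Mmp3) and 4 fell (Mmp15, Adam15, Adam22 and Timp4). In that fit 2.01% of all genes tested were called higher and 1.07% lower. Without adult control library 2, both Adamts19 and Adamts17 rose and 0 fell among 37 members tested. The shares over all genes there were 0.888% higher and 0.0934% lower. Without adult control library 3 or any stabilized beta-catenin library only Adamts19 was called. The median log2FC was -0.11 over the members and 0.00 over all genes tested. The 6 members left untested were Adam4, Adam12, Adam32, Adamts4, Adamts20 and Mmp25, which did not reach the minimum in 3 adult libraries.

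Adamts19 is a secreted protease whose loss is linked to heart valve disease in humans and mice. It stood at 254, 204 and 558 normalized counts in the stabilized beta-catenin libraries, at 433, 334 and 304.5 at P6, and at 11.7, 12.1 and 18.0 in the adult controls. All 3 stabilized beta-catenin libraries and all 3 P6 libraries were above every adult control, with 1432, 752 and 51 reads behind the groups. With stabilized beta-catenin the log2FC over adult control was 4.39 (SE 0.37, adjusted p = 0.00189), a 21.0-fold difference, and it was called in all 18 alternatives (adjusted p up to 0.0116). Without any 1 library the log2FC ranged between 3.96 and 4.68. At P6 the log2FC over adult control was 4.59 (SE 0.23, adjusted p = 1.58e-06). Stabilized beta-catenin over P6 gave -0.20 (95% interval -0.89 to 0.48, adjusted p = 0.567), an interval that leaves room for a difference of either sign. Without stabilized beta-catenin library 3, the highest of its group, that value was -0.63 and was called (adjusted p = 0.00800). Both comparisons with adult control use the same adult libraries, so their values are given side by side and not as separate support.

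**Figure D1:**
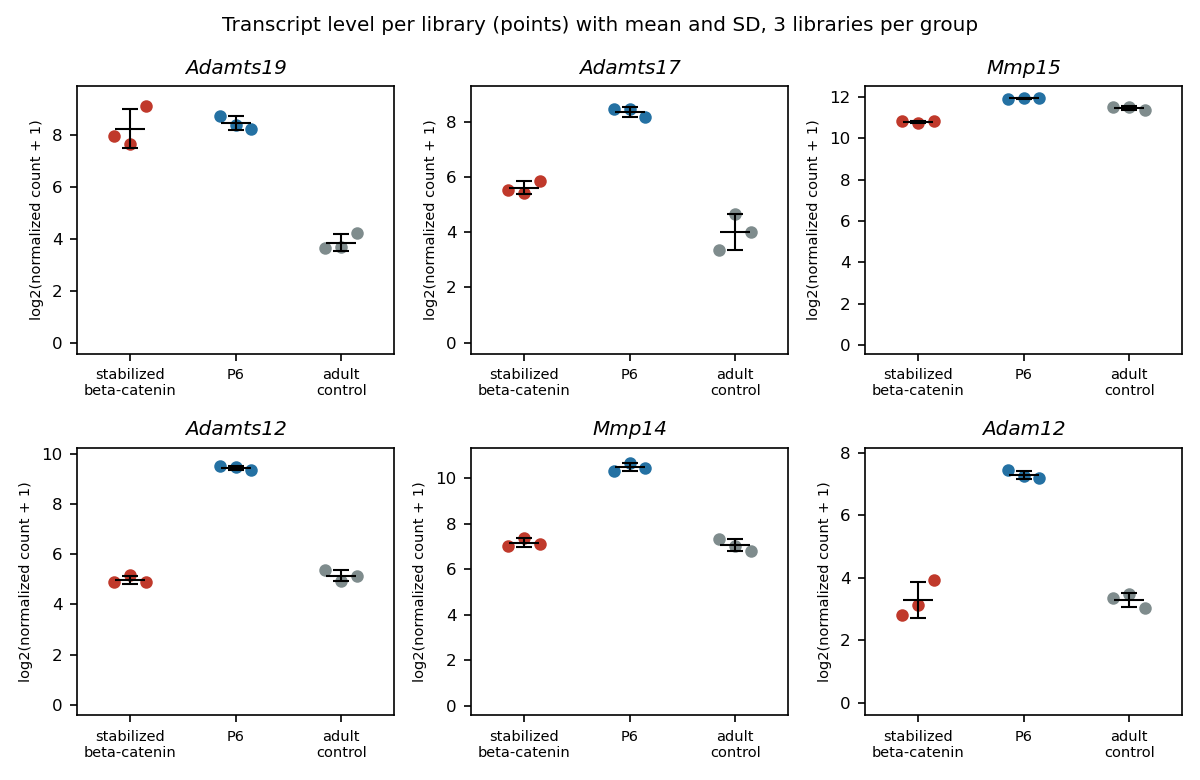
Each panel plots log2(normalized count + 1) of 1 gene in the 9 libraries (points) with mean and SD per group of 3. Adamts19 was high with stabilized beta-catenin and at P6 and low in adult controls, whereas Adamts12, Mmp14 and Adam12 were high at P6 in comparison with both adult groups.

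Mmp15, a membrane-anchored protease, had 1810, 1714 and 1844 normalized counts with stabilized beta-catenin, 3765, 3985 and 3930 at P6, and 2961, 2922 and 2604 in adult controls. The 3 groups did not overlap, and stabilized beta-catenin was the lowest. Its log2FC over adult control was -0.66 with stabilized beta-catenin (SE 0.12, adjusted p = 0.0357). That call held in 10 of 18 alternatives and was lost with total-count scaling, limma without trend, the replicate block (adjusted p = 0.0665) and without any 1 of the stabilized beta-catenin libraries or of adult control libraries 2 and 3 (adjusted p up to 0.220). Direction and size changed little, with -0.72 to -0.62 when 1 library was left out.

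Several members did not overlap between the adult groups and yet did not pass the test. Adamts17, a secreted protease linked in humans to a short-stature syndrome with eye defects, had 46.1, 41.9 and 58.1 normalized counts with stabilized beta-catenin, 354, 361 and 289.6 at P6, and 9.17, 24.3 and 15.1 in adult controls. Stabilized beta-catenin lay between the other groups without overlap. Its log2FC over adult control was 1.62 (SE 0.35, adjusted p = 0.0708), called with total-count scaling, DESeq2, all 3 groups in 1 fit and without adult control library 2. Adam15, an ADAM with an integrin-binding domain, had 376, 421 and 408 with stabilized beta-catenin and 619, 783 and 577 in adult controls (log2FC -0.70, adjusted p = 0.0630). It passed with DESeq2, with all 3 groups in 1 fit and without adult control library 1. Adamts14, a procollagen protease, had 5.01, 2.57 and 2.37 normalized counts with stabilized beta-catenin and 11.7, 10.1 and 12.2 in adult controls (log2FC -1.56, adjusted p = 0.137), and passed with limma without trend and with all 3 groups in 1 fit. Mmp3 had 47.1, 57.3 and 33.8 with stabilized beta-catenin and 30.8, 17.2 and 10.1 in adult controls (log2FC 1.31, adjusted p = 0.199), and passed without adult control library 1. In all, 4 members had every stabilized beta-catenin library above every adult control and 5 had every one below, where 9.84% of all genes tested had every library above and 9.19% every library below. The members' counts are near these shares. Adamts17 reached 10 normalized counts in every stabilized beta-catenin library but not in every adult control, and Adamts14 and Mmp13 the reverse. The minimum favours the direction of these members, and their values are given as a description.

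Other genes around these proteases gave no call with stabilized beta-catenin against adult control, where 1.8% of all genes tested were called. Uncalled were 7 ADAMTS-like genes, 12 activators and inhibitors, and 5 astacin proteases and enhancers. So were 10 regulators and substrates of ADAMs, and Vcan, the 1 proteoglycan substrate tested. At that share few calls were to be had in lists of this size, so their absence is not read as a lack of change. Marker lists of fibroblasts, endothelial, mural, macrophage, epicardial, atrial and cardiomyocyte cells likewise had no member called among those tested. These were 3 of 5 epicardial, 1 of 3 atrial and 0 of 7 granulocyte markers and all markers of the other lists. The 6 mural markers had a median log2FC of -0.74, and Acta2 alone among them was positive (0.27). The lack of calls does not show equal cell content.

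At P6 most members were higher than in adult controls. Of the 47 tested, 31 were called higher and 6 lower, where 31.2% of all 13398 genes tested were called higher and 31.3% lower, 62.5% in all. The median log2FC was 1.097 over the members and 0.02 over all genes tested. Among the 33 members that reached 10 normalized counts in every library of both groups, 22 rose and 4 fell. A further 11 did so in every library at P6 but not in adult controls. These were Adam4, Adam8, Adam12, Adam32, Adam33, Adamts4, Adamts8, Adamts17, Adamts20, Mmp25 and Timp1. Mmp3 and Mmp13 did so in every adult control but not at P6. Since these 13 passed the minimum through the group where they were high, the minimum favours their direction, their values are given below as a description, and counts are given also without them. Here and below, no share over all genes was taken for genes at 10 normalized counts in every library. Without adult control library 2 or 3 the members that fell numbered 3 of 45 tested. Mmp3 and Mmp13 no longer reached the minimum there and were not tested, and Adam22 lost its call. With total-count scaling, under which the median log2FC over all genes was 0.44, 34 members rose and 5 fell, and 47.7% of all genes were higher and 17.3% lower. Cell type markers differed between these groups as well. The summed level of 6 fibroblast markers was 27687 to 36341 at P6, against 11654 to 12881 normalized counts in adult controls. Within that list Col1a1, Col1a2 and Tcf21 rose, Dcn fell, and Pdgfra (log2FC 0.04) and Lum (-0.09) did not pass. The 5 endothelial markers summed to 18616 to 21594 at P6, against 9367 to 14028 in adult controls, and the 6 cardiomyocyte markers to 480860.2 to 553221, against 889689 to 997495. Of the 6 cardiomyocyte markers 4 were called lower, and Myh6 (log2FC -0.61) and Ryr2 (-0.58) did not pass. Myh6 alone averaged 314749 at P6 and 483760 in adult controls. The 5 epicardial markers summed to 703 to 908 at P6, against 181 to 199.98 in adult controls, and the 3 atrial markers to 160.4 to 229.8, against 11.1 to 37.5. Of the atrial markers 2 were tested and called higher, Myl7 with a log2FC of 4.28 and Myl4 with 2.59. None of these markers was at 0 in a group, and their part in the changes was not tested.

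**Figure D2:**
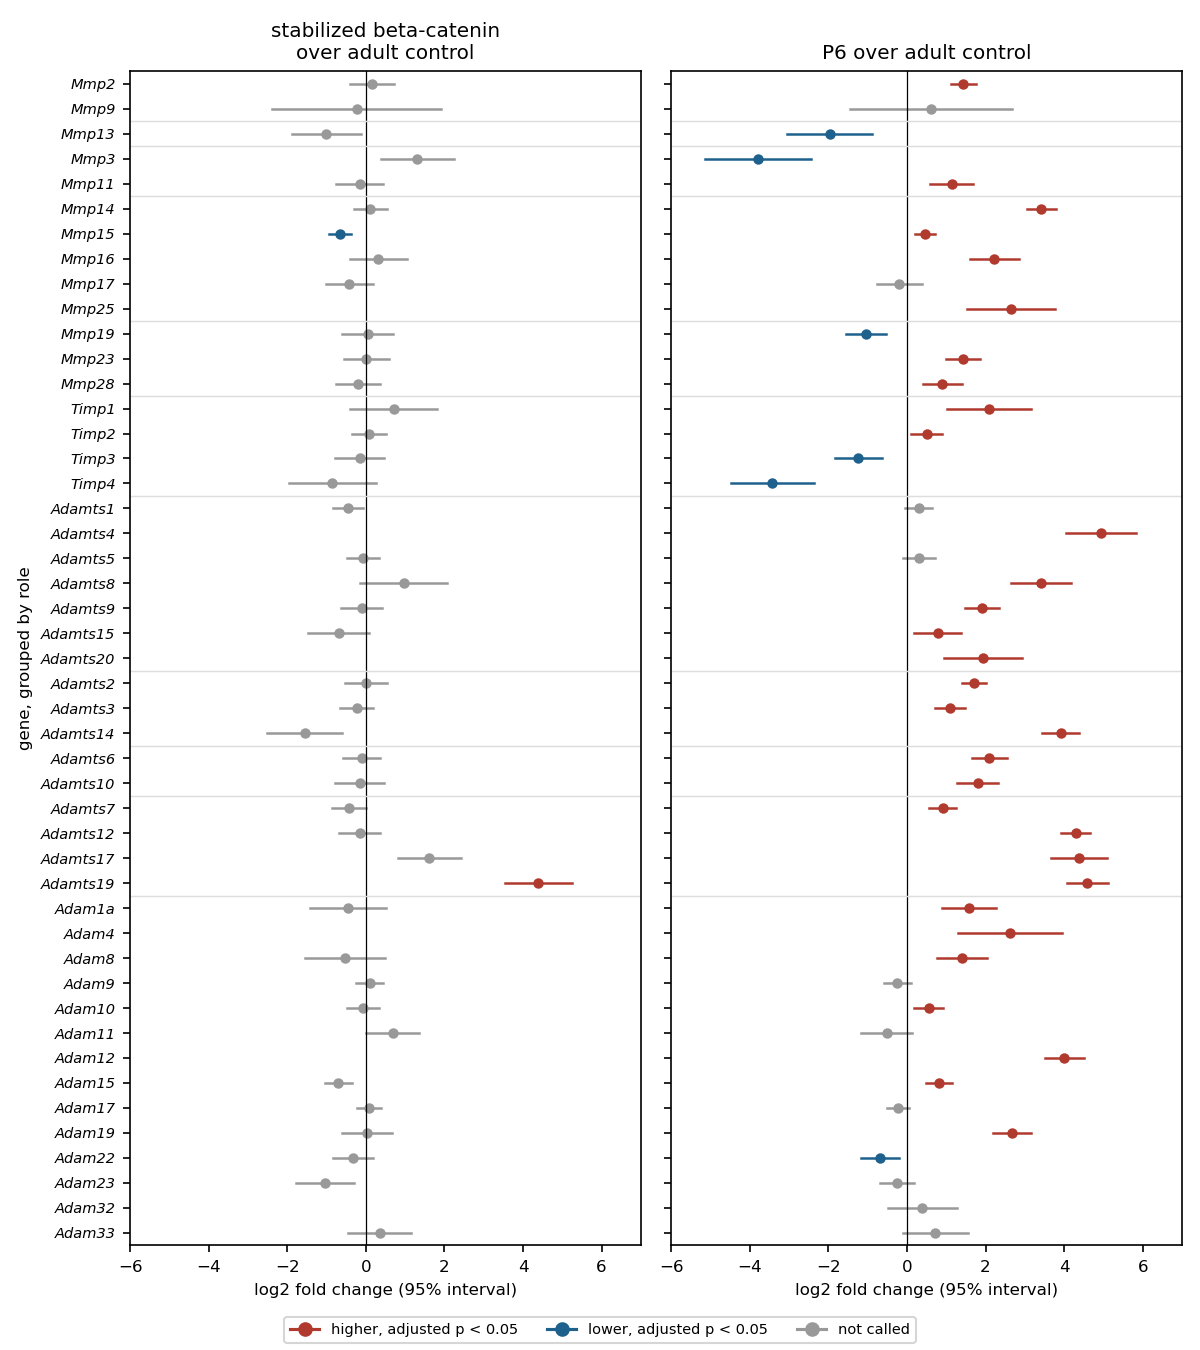
Points show the log2 fold change of each member and lines its 95% interval (limma), with stabilized beta-catenin over adult control on the left and P6 over adult control on the right, and members below the minimum in a comparison left out. On the left Adamts19 rose and Mmp15 fell, and on the right 31 members were called higher and 6 lower.

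Of the 16 Adamts members at P6, 14 were called higher and 0 lower, against 31.2% and 31.3% of all genes tested. The median log2FC of the 16 was 1.92. Among the 12 that reached the minimum in every library of both groups, 10 rose and 0 fell (median 1.75). Adamts1 (0.30, adjusted p = 0.117) and Adamts5 (0.31, adjusted p = 0.155) did not pass, although both did with total-count scaling (0.72 and 0.74). Adamts12, a protease that cuts a cartilage matrix protein, had 29.1, 35.1 and 28.4 normalized counts with stabilized beta-catenin, 724, 702 and 649 at P6, and 40.0, 29.3 and 34.6 in adult controls. Both adult groups overlapped, and P6 was far above them. Its log2FC over adult control was 4.29 at P6 (SE 0.16, adjusted p = 6.20e-07), and -0.16 with stabilized beta-catenin (SE 0.23, adjusted p = 0.877). Stabilized beta-catenin over P6 gave -4.45 (SE 0.14, adjusted p = 2.16e-08), whereas Adamts19 was not called in that comparison.

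Of 7 proteases that cut proteoglycans such as versican, 5 were called higher at P6, against 31.2% of all genes tested. Of the 4 that reached the minimum in every library of both groups 2 rose, Adamts9 and Adamts15. Adamts4 had 5.01, 11.1 and 2.37 normalized counts with stabilized beta-catenin, 208, 227 and 187 at P6, and 12.5, 4.04 and 3.60 in adult controls. The P6 libraries were the highest, in a gene that passed the minimum through P6 (log2FC over adult control 4.94, SE 0.39). Adamts8, an aggrecan-cutting member, had 13.0, 30.0 and 40.3 with stabilized beta-catenin, 117, 179 and 137 at P6, and 8.33, 21.2 and 10.8 in adult controls. Its P6 libraries were also above all others, with the same limit (log2FC 3.41, SE 0.34). Adamts9, a broadly expressed versican protease, averaged 1507 ± 92.5 at P6 and 412 ± 114 in adult controls (SD, n = 3 each, log2FC 1.91, SE 0.19, adjusted p = 5.19e-05). Adamts20, again with that limit, had a log2FC of 1.93. Adamts15 rose (0.78), a call lost without P6 library 1 or 2 or adult control library 2 or 3 (adjusted p up to 0.0912). Of 4 proteoglycan substrates listed with them, 2 were tested, Vcan and Acan. Vcan, the versican gene, rose, with 3721 ± 373 at P6 and 542 ± 205 in adult controls (SD, n = 3 each, log2FC 2.84, adjusted p = 2.13e-05). Acan, the aggrecan gene, averaged 202 ± 60.1 and 3.93 ± 3.74 in these groups and passed the minimum through P6. Bcan and Ncan did not reach the minimum.

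Procollagen N-propeptidases, which remove a propeptide from fibrillar procollagens, rose in 3 of 3 cases. Adamts14 had 180, 160.4 and 215 normalized counts at P6 against the 10.1 to 12.2 of adult controls given above. Its log2FC was 3.91 (SE 0.21, adjusted p = 1.99e-06). Adamts2, the main enzyme for type I procollagen, averaged 1259 ± 171 at P6 and 384 ± 24.3 in adult controls (SD, n = 3 each, log2FC 1.70, SE 0.13, adjusted p = 1.27e-05), and Adamts3 had a log2FC of 1.097. Bmp1, which removes the propeptide at the other end, rose as well (log2FC 1.84). Pcolce2, an enhancer of that step, fell (-1.90). The fibrillin-linked Adamts6 (2.10) and Adamts10 (1.80) both rose, as did Adamts7 (0.90), while Adamts17, which passed the minimum through P6, had a log2FC of 4.38 (SE 0.31). Among 7 ADAMTS-like genes, which lack the protease domain, 3 rose and 2 fell, with Thsd4 at 1.73 and Adamtsl5 at -1.49. Among 12 activators and inhibitors of the system 4 rose and 2 fell. Over all genes tested 31.2% rose and 31.3% fell, so the counts of these 2 lists are not read as a result about them. Pcsk5, a proprotein convertase, had a log2FC of 1.51 and Plat, the tissue plasminogen activator, 0.97, whereas Bsg, an inducer of MMPs, fell (-1.34). Reck, a membrane-bound inhibitor of MMPs, did not pass (0.59, adjusted p = 0.0623).

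**Figure D3:**
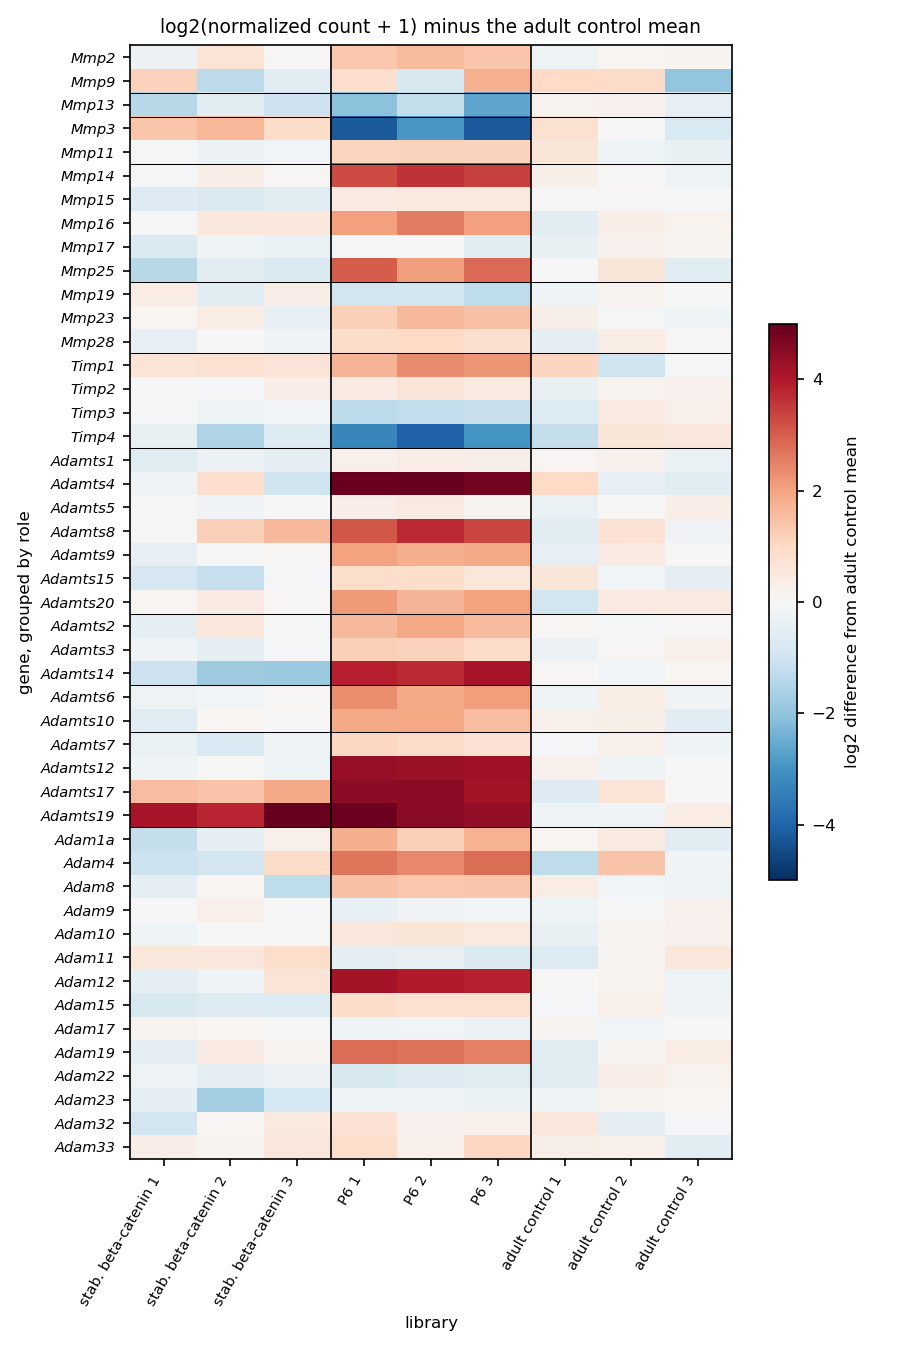
Colour gives log2(normalized count + 1) minus the adult control mean for the 47 members (rows, by role) in the 9 libraries (columns), on a scale from -5 to 5. The P6 columns are red for 31 called members and blue for 6, and with stabilized beta-catenin Adamts19 is dark red in all 3 libraries and Adamts17 light red.

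Of 5 MMPs listed as membrane-type 4 were called higher at P6, against 31.2% of all genes tested. Without Mmp25, which passed the minimum through P6, 3 of 4 rose. Mmp14, which cuts collagen at the cell surface and activates pro-Mmp2, had 128, 168 and 139 normalized counts with stabilized beta-catenin, 1268, 1619 and 1417 at P6, and 161, 129 and 112 in adult controls. P6 was apart from both adult groups, which overlapped. The log2FC over adult control was 3.42 at P6 (SE 0.16, adjusted p = 1.32e-06) and 0.12 with stabilized beta-catenin (SE 0.19, adjusted p = 0.892). Mmp2, a gelatinase, averaged 834 ± 296 with stabilized beta-catenin, 1954 ± 167 at P6 and 725 ± 101 in adult controls (SD, n = 3 each). At P6 it rose with a log2FC of 1.44 (SE 0.14, adjusted p = 3.93e-05), as did Mmp16 (2.22) and Mmp15 (0.46), whereas Mmp17 did not pass (-0.19, adjusted p = 0.539, turning to 0.23 with total-count scaling). Of the remaining MMPs, the stromelysin Mmp11 (1.14), Mmp23 (1.43) and Mmp28 (0.90) rose too. Mmp25 had 2 reads with stabilized beta-catenin, 34 at P6 and 6 in adult controls over the 3 libraries of each group. The ratio of P6 to adult control was 9.68 (95% interval 4.02 to 28.2, counting error only). Mmp9, the other gelatinase and a product of neutrophils and macrophages, had 14.03, 1.71 and 3.56 with stabilized beta-catenin, 10.96, 2.89 and 22.3 at P6, and 12.5, 12.1 and 0.720 in adult controls. The groups overlapped, and its log2FC at P6 was 0.61 (SE 0.91, adjusted p = 0.579). Granulocyte markers summed to 7.70 to 59.1 normalized counts with stabilized beta-catenin, 52.0 to 209 at P6 and 9.17 to 13.0 in adult controls, with 1, 2 and 3 of the 7 markers at 0, and their part in the spread of Mmp9 was not tested.

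Mmp3 and Mmp13 had their lowest values at P6, and both passed the minimum through the adult controls. Mmp3, a stromelysin that activates other pro-MMPs, had 171 reads with stabilized beta-catenin, 1 read at P6 and 68 reads in adult controls over the 3 libraries of each group. Its normalized counts at P6 were 0, 1.45 and 0, below every adult library. The ratio of P6 to adult control was 0.0251 (95% interval 6.27e-04 to 0.145, counting error only), and that of stabilized beta-catenin to P6 was 93.0 (16.5 to 3693). Mmp13, a collagenase, had 5.01, 9.41 and 6.52 with stabilized beta-catenin, 2.74, 5.78 and 1.49 at P6, and 16.7, 17.2 and 10.8 in adult controls. Both other groups were below every adult control, with a log2FC of -1.97 at P6 (SE 0.47). With stabilized beta-catenin it was not called (-1.003, adjusted p = 0.315). Mmp19, at the minimum in every library, fell at P6 (-1.04), and 28.3% of its exon bases overlap exons of other genes on the opposite strand, so without a stated strand setting their reads cannot be told apart. Macrophage markers, of which 6 of 6 fell at P6 against 31.3% of all genes tested, summed to 802 to 869 at P6 and 2382 to 3995 normalized counts in adult controls. Their part in these differences was not tested.

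Of the inhibitors, Timp2 rose and Timp3 and Timp4 fell at P6, and Timp1, which passed the minimum through P6, had its highest values there. Timp4, the member known for its high level in the heart, had 432, 194 and 347 normalized counts with stabilized beta-catenin, 57.6, 33.2 and 68.3 at P6, and 246, 851 and 820.2 in adult controls. P6 was below all adults, and adult control library 1 was well under the other two adult controls. Its log2FC over adult control was -3.43 at P6 (SE 0.47, adjusted p = 2.67e-04) and -0.85 with stabilized beta-catenin (SE 0.49, adjusted p = 0.555). Without adult control library 1 the value with stabilized beta-catenin was -1.44 and was called (adjusted p = 0.0369).

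Timp3, which binds to the matrix and also blocks ADAM and ADAMTS enzymes, had 4724, 4302 and 4596 with stabilized beta-catenin, 2024, 2139 and 2295 at P6, and 3121, 6839 and 6100 in adult controls. P6 was again lowest without overlap (log2FC -1.24 over adult control, SE 0.26, adjusted p = 0.00316), and stabilized beta-catenin lay within the adult range (-0.16, adjusted p = 0.901). Of its exon bases 21.3% overlap exons of Syn3 on the opposite strand. Timp1, an inducible inhibitor, had 25.1, 26.5 and 24.3 with stabilized beta-catenin, 50.7, 82.4 and 74.3 at P6, and 32.5, 7.08 and 14.4 in adult controls. The P6 libraries were above all others (log2FC over adult control 2.09, SE 0.47), and the adult groups overlapped. Timp2, which takes part in the activation of pro-Mmp2, averaged 1277 ± 196 with stabilized beta-catenin, 1701 ± 163 at P6 and 1216 ± 254 in adult controls (SD, n = 3 each). Its call at P6 (log2FC 0.50, SE 0.17, adjusted p = 0.0292) was lost without any 1 P6 library and with TMM factors, limma without trend and edgeR (adjusted p up to 0.116).

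**Figure D4:**
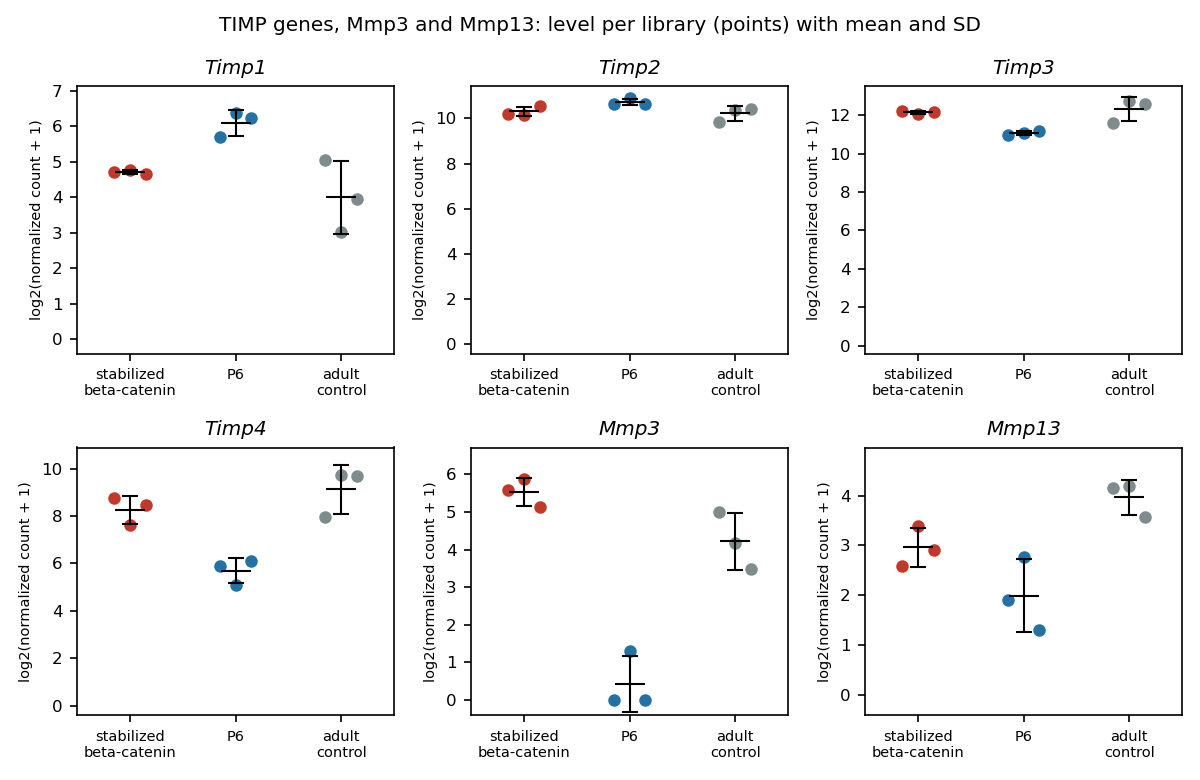
Each panel plots log2(normalized count + 1) of 1 gene in the 9 libraries (points) with mean and SD per group of 3. Timp3, Timp4, Mmp3 and Mmp13 were lowest at P6, and Timp1 and Timp2 highest there.

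Levels of different genes were compared as normalized counts per kilobase of exon, with lengths from GENCODE M21. Timp3 was the highest of the 47 with stabilized beta-catenin (558 per kilobase) and in adult controls (657), and Mmp15 at P6 (721). Timp3 was the member at place 6 at P6 (264). Summed over the 13 Mmp genes, the level per kilobase was 664 to 830.1 with stabilized beta-catenin, 1663 to 1886 at P6 and 845 to 918 in adult controls. The 16 Adamts genes summed to 379.99 to 473, 1098 to 1240.1 and 443 to 541 in these groups, and the 4 Timp genes to 886 to 1036, 726 to 846 and 699 to 1336. The Timp sum divided by the Mmp sum was 1.07 to 1.48 with stabilized beta-catenin, 0.437 to 0.453 at P6 and 0.775 to 1.49 in adult controls. P6 lay below all adult libraries in this ratio, and the adult groups overlapped, with 0.775 in adult control library 1. These sums are transcript levels and are given with no test.

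**Figure D5:**
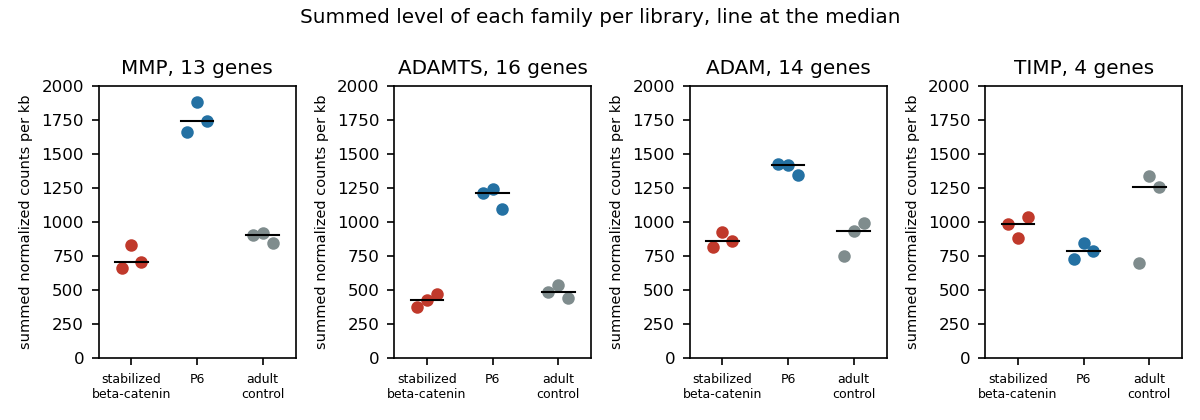
Each panel plots the summed normalized counts per kilobase of 1 family in the 9 libraries (points), with a line at the median of each group. The Mmp, Adamts and Adam sums were highest at P6, and the Timp sum of adult control library 1 lay below those of the other adult libraries.

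Among the 14 Adam genes 7 were called higher and 1 lower at P6, and among the 9 at the minimum in every library of both groups 4 rose and 1 fell (median log2FC -0.22). Over all genes tested 31.2% were higher and 31.3% lower, 62.5% in all. The counts of the Adam family are not read as a result about it. Adam12, a shedding protease of growing mesenchyme, had 6.01, 7.70 and 14.2 normalized counts with stabilized beta-catenin, 171, 152 and 144 at P6, and 9.17, 10.1 and 7.20 in adult controls. P6 was above both adult groups, in a gene that passed the minimum through P6 (log2FC over adult control 4.003, SE 0.22). Adam19, needed for heart septum and valve formation in mice, averaged 518 ± 147 with stabilized beta-catenin, 3156 ± 302 at P6 and 509 ± 152 in adult controls (SD, n = 3 each). Its log2FC at P6 was 2.67 (SE 0.21, adjusted p = 1.48e-05). Adam15 (0.81) and Adam1a (1.58) rose too. The leukocyte protease Adam8 (1.41) and Adam4 (2.62) had higher values at P6 but passed the minimum through it. Of the exon bases of Adam1a, 63.7% overlap another gene on the same strand, so its count is uncertain. Exons on the opposite strand overlap 20.6% of the exon bases of Adam15, 12.0% of those of Adamts9 and of Mmp28, 10.6% of Adamts8 and 10.1% of Adam19.

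The general sheddases had small differences. Adam10, which cuts Notch receptors among others, had a log2FC of 0.55 at P6 (SE 0.16, adjusted p = 0.0157), a call lost without P6 library 1 or 2 (adjusted p up to 0.0604). Adam17, which sheds tumour necrosis factor and ligands of the epidermal growth factor receptor, had 924, 877 and 798 with stabilized beta-catenin, 704.5, 740.0 and 662 at P6, and 897, 745 and 822 in adult controls. P6 was below every adult library (log2FC over adult control -0.22, SE 0.12, adjusted p = 0.136). Called lower with TMM factors, it turned to 0.20 with total-count scaling. Adam22, a member with no active site that serves as a neuronal receptor, was the 1 Adam gene that fell (-0.68, adjusted p = 0.0194). Its call was lost with total-count scaling (-0.25) and without P6 library 1 or 2 or adult control library 2 or 3. Among 10 regulators and substrates of ADAMs 5 rose and 2 fell, where 31.2% of all genes tested rose and 31.3% fell. Notch1 was at 1.29, Tgfa at 1.21 and Tspan17 at -1.49.

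Stabilized beta-catenin set directly against P6 called 33 of 46 members lower and 8 higher, where 35.8% of all 13367 genes tested were lower and 36.5% higher, 72.3% in all. Among the 36 members that reached the minimum in every library of both groups, 26 were lower and 7 higher. Of the others, Adam4, Adam8, Adam12, Adamts4, Adamts14, Adamts20 and Mmp25 were called lower and passed the minimum through P6, and Mmp3 was called higher and passed it through stabilized beta-catenin, so the minimum favours their direction. The median log2FC was -1.33 over the members and 0.00 over all genes tested. Besides Mmp3, the higher ones were Timp4 (2.58), Adam11 (95% interval 0.89 to 1.51), Mmp19 (1.08), Timp3 (1.08), Adam22 (0.35), Adam9 (0.34) and Adam17 (0.30). With total-count scaling, under which the median over all genes was -0.40 and 22.0% of genes were higher and 51.2% lower, 4 members were higher, and Adam9, Adam17 and Adam22 turned to small negative values. Adamts12, given above, Mmp14 (-3.30) and Adamts17 (-2.76) fell, and among the members that passed through P6 Adamts14 had -5.47, Adamts4 -5.05, Adam12 -4.002 and Adam4 -2.97. Of the 16 Adamts genes 15 were lower, and Adamts19 was the exception, as given above. Adam23 was called lower (-0.78), a call that held in 9 of 17 alternatives. The 5 members not called were Adamts19, Adam32, Adam33, Mmp9 and Mmp17.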

How the data were processed

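Ventricle RNA was sequenced in 9 libraries, grouped by the sample titles. The submitters' processing notes list Bowtie2 2.0, DESeq2 and the build mm9. Per the file headers, htseq-count gave the reads per gene. Its annotation and strand option are not given in the sources used here. The authors deposited a table whose values are a signal, the count divided by 1 factor per library, and for P6 also the count of each gene. In all 9 libraries 100% of values were whole multiples of the value of 1 read within 0.001, and the reads so obtained equalled the deposited P6 count in 24364 of the 24364 genes matched by symbol, with 27 date-like symbols unmatched. In 2 libraries the value of 1 read is close to 1.

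Only the 2 groups compared entered a fit. A gene was tested where 3 or more of the 6 libraries reached 10 normalized counts, with limma 3.58.1 (intensity trend, two-sided) in R 4.3.3 on log2(normalized count + 1), with Benjamini-Hochberg adjustment over all genes and a threshold of 0.05. The procedure was tested on simulated data, with a spread shared by all genes and changes placed only in genes averaging at least 50 normalized counts. That test does not cover members of lower count. Ratios of few reads have exact 95% binomial intervals, which cover counting error only. Full statistics were given for a fixed set of members and for up to 8 called members each way, taken by size of log2FC. Members and lists were chosen with earlier results of these data known. Alternatives were pseudocounts of 0.5 and 5, no filter, a filter of 50 or over all 9 libraries, TMM factors, total-count scaling, limma without trend, edgeR 4.0.16, DESeq2 1.42.0, all 3 groups in 1 fit, a replicate block, and each library left out in turn. The values of 1 listed gene are not reported here.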

Additional observations from a re-analysis of the deposited data

How the results depend on the processing

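With P6 against adult control, 33 of the 37 called members were called in every alternative run for them. The number higher was 27 to 34 over the other alternatives and 26 to 32 without 1 library. The number lower was 3 with a filter of 50, under which 36 members were tested, and 3 to 6 without 1 library. Mmp3 and Mmp13 were not tested where an adult control was left out. With stabilized beta-catenin against adult control, Adamts19 was called in every alternative. The number higher was 2 with total-count scaling, DESeq2 and all 3 groups in 1 fit, and 1 to 2 without 1 library. The number lower was 0 with total-count scaling and with the replicate block, 2 with DESeq2, 3 with all 3 groups in 1 fit, and 0 to 4 without 1 library. Over all genes, limma called 233 in that comparison, DESeq2 564, all 3 groups in 1 fit 494, and limma without 1 library 27 to 397. With stabilized beta-catenin against P6, 4 members were higher with total-count scaling, and 6 to 8 were higher and 29 to 33 lower without 1 library.

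Direction changed as follows. With total-count scaling the log2FC at P6 over adult control turned to 0.20 for Adam17, 0.16 for Adam23, 0.18 for Adam9 and 0.23 for Mmp17, and stabilized beta-catenin over P6 to -0.11 for Adam17, -0.056 for Adam22 and -0.065 for Adam9. Adamts2, near 0 with stabilized beta-catenin over adult control, turned to 0.0043 with TMM factors, 0.020 with total-count scaling, 0.062 with edgeR and 0.065 with DESeq2. Leaving out 1 library changed the sign in 30 further fits of 18 member comparisons. These gave ranges of -0.37 to 1.31 for Mmp9 at P6 over adult control and -0.63 to 0.091 for Adamts19 with stabilized beta-catenin over P6. With stabilized beta-catenin over adult control the ranges were -0.26 to 0.036 for Adam10, -0.23 to 0.27 for Adam19, -0.011 to 0.21 for Adam9, -0.44 to 0.047 for Adamts10, -0.27 to 0.23 for Adamts2, -0.25 to 0.089 for Adamts5, -0.21 to 0.088 for Adamts6, -0.32 to 0.091 for Adamts9, -0.34 to 0.14 for Mmp11, -0.00294 to 0.25 for Mmp14, -0.11 to 0.34 for Mmp19, -0.12 to 0.38 for Mmp2, -0.17 to 0.22 for Mmp23, -0.10 to 0.19 for Timp2, -0.51 to 0.056 for Timp3 and -1.22 to 0.30 for Mmp9.

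Whether replicate numbers pair the samples cannot be settled from correlations around means of 3 libraries. The correlation of deviations from the group means between same-numbered libraries was -0.08 to 0.03 for P6 with adult control, -0.12 to 0.20 for stabilized beta-catenin with adult control and -0.10 to 0.12 for stabilized beta-catenin with P6. Between differently numbered libraries it was -0.08 to 0.16, -0.38 to 0.41 and -0.17 to 0.12 in that order. Of 6 libraries, 1, 3 and 3 correlated best with their own number. Beside the Mmp15 call, which it ended, the replicate block called 31 members higher and 6 lower at P6 over adult control, and 8 and 33 for stabilized beta-catenin over P6. At the lower depth of the P6 libraries Mmp3 had 1 read, Mmp13 7, Mmp9 and Adam32 25 each and Mmp25 34, so their values are imprecise there. The cause of these changes was not tested.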
